A study of Mus musculus with 32 samples.

Results

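The genes described here are 10 protein-coding mouse genes, Itpka, Clcn1, Morn4, Cdkn2c, Wasf1, Pex5, Trmt61a, Asb1, Cand2 and Usp19, out of 13557 protein-coding genes with a peak in the series. They were chosen because a peak in chromatin-associated RNA was present in the controls and absent from both knockouts, so their chromatin RNA pattern is given as a description and only their polyadenylated RNA was not used in the choice. For 6 of them (Itpka, Clcn1, Morn4, Cdkn2c, Wasf1 and Pex5) every chromatin RNA peak was absent from the 4 knockout lists. The other 4 (Trmt61a, Asb1, Cand2 and Usp19) lacked 1 or 2 stretches in both knockouts and had other caRNA peaks in every knockout list, except that Asb1 had none in Mettl14 knockout 1.

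RNA carrying N6-methyladenosine (m6A) was immunoprecipitated and sequenced from C57BL/6 mouse embryonic stem cells labelled Mettl3 CKO or Mettl14 CKO, and from Mettl3 Control or Mettl14 Control cells. The label CKO commonly stands for conditional knockout, and the labels do not say how, when or how completely either gene was deleted. All cells were grown with LIF at 1000 U/ml, CHIR99021 at 3 µM and PD0325901 at 1 µM, a medium that holds stem cells undifferentiated, and received the same m6A spike-in RNA. Chromatin-associated RNA freed of ribosomal RNA (caRNA) and polyadenylated RNA (mRNA) were profiled in 2 libraries per group, which gave 16 peak lists in 8 groups.

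m6A is placed on adenosines of nascent RNA by a complex in which METTL3 is the catalytic subunit and METTL14 the partner that helps to bind the RNA. It is best known from sites in long internal exons and around stop codons of messenger RNA, where reader proteins affect the splicing, export, translation and decay of the transcript. RNA held on chromatin contains nascent and retained transcripts and carries m6A too. In embryonic stem cells the mark is known for limiting the lifetime of transcripts of pluripotency and developmental regulators.

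The caRNA lists held 37955 to 45241 peaks and the mRNA lists 16537 to 23380 after spike-in peaks were set aside. Listed peaks began at a −log10 q of 2.00 to 2.02, so an absent peak is one that the authors' caller did not list at that level. In such lists lower methylation, less RNA, fewer cells that express the gene and fewer reads cannot be told apart, and the depth is unknown. Of 15 embryonic stem cell marker genes 13 to 15 had a peak in each caRNA list and 11 to 13 in each mRNA list. Of 10 fibroblast markers, 9 and 10 had a caRNA peak in the Mettl3 knockouts against 4 and 5 in the Mettl3 controls. The caRNA counts were 7 and 7 in the Mettl14 knockouts against 6 and 6 in the Mettl14 controls. In mRNA these counts were 8 and 7 in the Mettl3 knockouts against 6 and 8 in the controls, and 5 and 5 in the Mettl14 knockouts against 3 and 3 in the controls. The part of the fibroblast markers in the results was not tested. Whether the 2 libraries of a group stem from separate cultures is not stated.

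No genome sequence was used here, so the bases under most of these peaks are not shown. The sequence that can be shown is the start of Trmt61a, since its strongest caRNA region in the Mettl14 line began inside the promoter window of RefSeq (GRCm38.p6, chr12:111677855-111678154, plus strand, 250 bases before to 50 after the gene start). Capitals mark the 27 bases of this window under at least 1 peak of Trmt61a, and the gene itself starts at position 111678105.
Trmt61a: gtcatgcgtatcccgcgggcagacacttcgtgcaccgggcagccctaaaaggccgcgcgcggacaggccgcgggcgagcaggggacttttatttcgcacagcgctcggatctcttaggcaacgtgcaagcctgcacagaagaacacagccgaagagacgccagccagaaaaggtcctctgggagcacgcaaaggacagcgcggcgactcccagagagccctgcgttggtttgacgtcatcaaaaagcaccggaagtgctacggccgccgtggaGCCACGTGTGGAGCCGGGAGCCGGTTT
Peaks reached into this window in 8 of the 16 lists, among them both caRNA lists of the Mettl14 knockouts and both of the Mettl14 controls. None of the other 12 promoter windows, which belong to 8 other members, held a peak in any list; Cand2 had no entry. The letters GGACT, a form of the sequence around many m6A sites, searched on both strands, occurred in 11 of the 13 member windows (84.6%) and in 45.5% of 32851 windows of the table. On the strand of the gene they occurred in the windows of Itpka, Clcn1, Morn4 and Trmt61a, and in a window each of Pex5 and Asb1. No window of Cdkn2c, Wasf1 or Usp19 had them on that strand. The share over the table on the gene strand is not given, and the shares were not tested. In each window 250 bases lie before the start, and 12 of the 13 windows held no peak. Cdkn2c, Pex5 and Asb1 gave several windows each, and some of those of Pex5 overlap. The shares therefore say nothing of the bases under the peaks. The member windows had a median GC content of 61.7%, against 52.7% over the table.

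A gene was called lost where both controls and neither knockout had a peak with its summit in the gene body, gained in the reverse case, and retained where all 4 libraries had one. By this rule 6 members were lost in caRNA of the Mettl3 line, where 4.78% of genes marked in both controls were lost, 90.1% were retained and 3.75% of those marked in both knockouts were gained. The same 6 were lost in caRNA of the Mettl14 line, where the shares over all genes were 4.69% lost, 90.0% retained and 2.71% gained. Over all protein-coding genes, 54 of 9107 with a peak in all 4 caRNA controls were lost in both lines (0.593%), and the 6 are among these 54. Nothing is read from these counts, which the choice of genes fixed. Within the 54, ordered by the median percentile of the control folds in their lists, Itpka stood at 1, Clcn1 at 2, Morn4 at 3, Cdkn2c at 9, Wasf1 at 12 and Pex5 at 44.

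**Figure D1:**
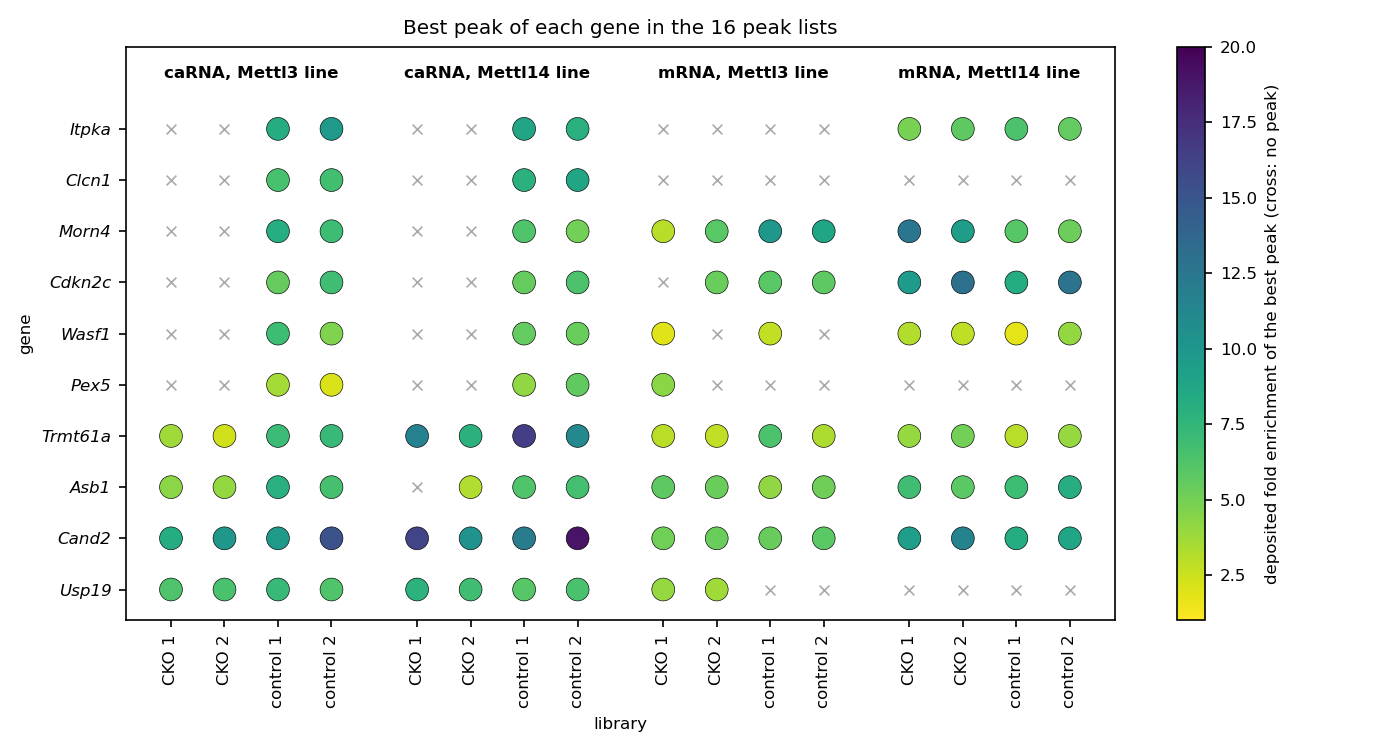
Best peak of each of the 10 genes (rows) in each of the 16 lists (columns, grouped by RNA type and line, knockouts left of controls). Colour gives the authors' fold enrichment and a cross marks a list with no peak; the first 6 rows have crosses in all 4 caRNA knockout columns, while Itpka, Morn4, Cdkn2c and Wasf1 have peaks in both mRNA knockout columns of the Mettl14 line.

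Itpka encodes a kinase that turns inositol trisphosphate into tetrakisphosphate and also bundles actin filaments. Its body spans chr2:119742337-119751253 (mm10) on the plus strand, and the stretch lost in both lines is chr2:119750712-119751094. Neither Mettl3 knockout list had a caRNA peak in it, against best folds of 8.30 and 9.72 in the Mettl3 controls. Neither Mettl14 knockout list had one either, against 8.84 and 7.97 in the Mettl14 controls. The 4 control peaks stood between percentiles 77.5 and 88.5 of the folds of their lists, so they were strong for these libraries.

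The same place kept its peak in mRNA of the Mettl14 line. Itpka had folds of 4.90 and 5.69 in the Mettl14 knockouts and 6.35 and 5.58 in the Mettl14 controls, and the knockout and control ranges overlapped. No mRNA list of the Mettl3 line, knockout or control, had a peak in the gene. The summits of the 8 peaks in caRNA and mRNA lay within 3 bp of each other, from 119750946 to 119750949, with the median summit 304 bp before the end of the gene. A further Itpka region near the gene start, chr2:119743720-119744315, was listed only in caRNA of the Mettl14 controls, with folds of 4.87 and 3.26.

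Clcn1 (chr6:42284851-42315764, plus strand) encodes the chloride channel that sets the resting excitability of skeletal muscle fibres. The gene overlaps the ends of Fam131b and of the long noncoding Gm38797. It had no mRNA peak in any of the 8 lists, and 2 stretches close to its 3′ end were lost in caRNA of both lines. At chr6:42312622-42312862 the Mettl3 knockouts had none, against 6.40 and 6.73 in the Mettl3 controls, and the Mettl14 knockouts none, against 7.83 and 8.76 in the Mettl14 controls. At chr6:42313990-42314333 the knockouts of both lines had none, against folds of 6.56 and 3.21 in Mettl3 controls and of 5.31 and 4.29 in Mettl14 controls. Between them, at chr6:42313205-42313510, Mettl14 control 1 alone had a weaker peak (2.85). In these 16 lists Clcn1 was thus marked only in chromatin RNA of control cells.

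Morn4 encodes a small protein of MORN repeats, whose fly counterpart is known to bind a class of myosin in photoreceptors. Its caRNA stretch at chr19:42075492-42076196, minus strand, was absent from the Mettl3 knockouts, against 8.21 and 6.98 in the Mettl3 controls. It was also absent from the Mettl14 knockouts, against 6.23 and 5.02 in the Mettl14 controls. The same stretch had an mRNA peak in all 8 lists. There the folds were 3.02 and 5.92 in the Mettl3 knockouts and 9.86 and 8.77 in the Mettl3 controls, and the groups did not overlap. In the Mettl14 line they were 12.5 and 9.51 in the knockouts and 6.02 and 5.24 in the controls, again without overlap but with the knockouts higher. A weaker region closer to the gene end, chr19:42075088-42075250, was lost in caRNA of the Mettl3 line alone (none in the knockouts, 3.87 and 4.68 in the controls) and had no caRNA peak in any Mettl14 library.

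Cdkn2c encodes an inhibitor of the cyclin D-dependent kinases, a brake on entry into the cell cycle. Its stretch at chr4:109666124-109666599, minus strand, was the only one of the 12 stretches in the first 10% of its gene. No caRNA knockout list had a peak there, against 5.53 and 6.84 in Mettl3 controls and 5.46 and 6.41 in Mettl14 controls. For Cdkn2c mRNA of the Mettl3 line, knockout 1 had no peak and knockout 2 had 5.38, against 5.94 and 5.73 in the controls. For the Mettl14 line the mRNA folds were 9.63 and 13.0 in the knockouts and 8.34 and 12.7 in the controls, and the ranges overlapped. The summits of all 11 peaks in caRNA and mRNA lay within 34 bp.

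Wasf1 encodes a core subunit of the WAVE complex, which starts branched actin networks. The stretch at chr10:40937609-40937871 lies in the last 10% of a gene body of 55090 bp. It had no caRNA peak in the Mettl3 knockouts, against 7.01 and 4.67 in the Mettl3 controls, and none in the Mettl14 knockouts, against 5.59 and 5.31 in the Mettl14 controls. In mRNA of the Mettl3 line 1 library of each genotype had a peak there, with 1.9 in knockout 1 and 2.72 in control 1. In mRNA of the Mettl14 line the folds were 3.18 and 2.92 in the knockouts and 1.76 and 1.93 in the controls, low values that did not overlap. A single antisense peak of Wasf1, with a fold of 4.10, was listed in mRNA of Mettl14 control 2.

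Pex5 encodes the receptor that carries enzymes into the peroxisome, and overlaps the long noncoding D830015G05Rik at its start. By the median percentile over the 4 controls its caRNA peaks were the weakest of the 6 genes. At chr6:124396955-124397398, minus strand, within 267 bp of the gene end at the median summit, the Mettl3 knockouts had no peak against 3.52 and 2.05 in the Mettl3 controls. The Mettl14 knockouts had none against 4.16 and 5.61 in the Mettl14 controls. The lower Mettl3 control peak stood at percentile 1.98 of its list, with a −log10 q of 7.96. Summits spread over 306 bp, the widest span of the 12 stretches, and with summits within 100 nt as the criterion for a shared region the Mettl14 region of Pex5 was no longer called lost. The only mRNA peak of Pex5 lay elsewhere in the gene, in Mettl3 knockout 1 (4.31).

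**Figure D2:**
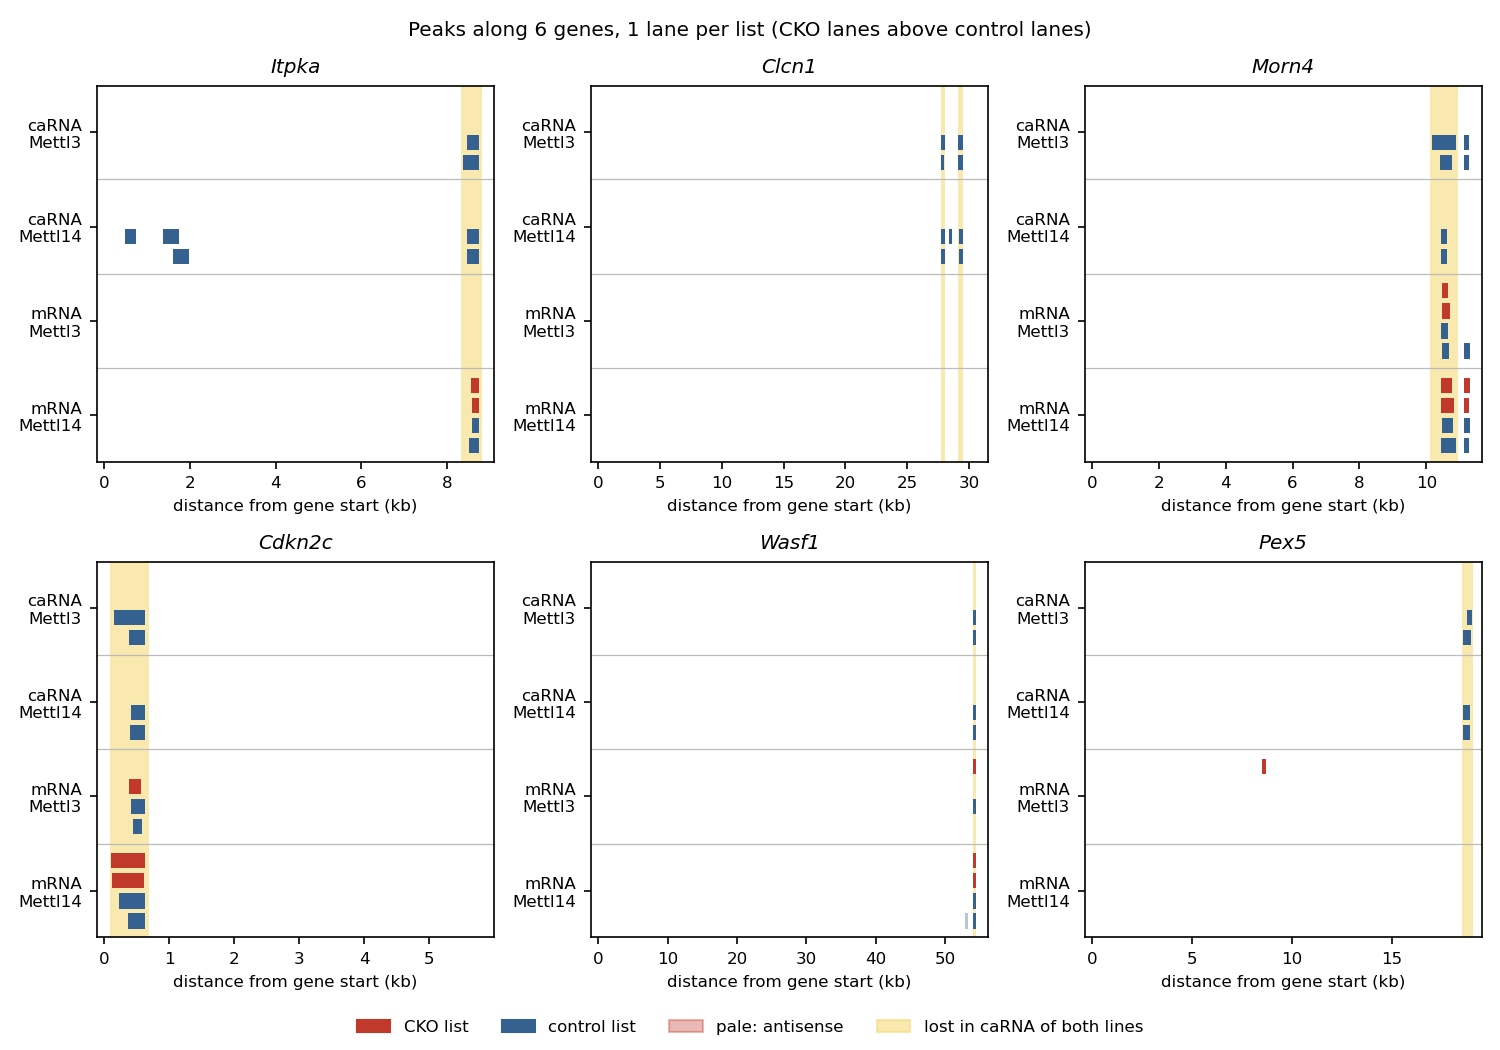
Peaks along the 6 genes without any caRNA peak in the knockouts, with distance from the gene start in kb on the x axis and 1 lane per list (knockout lanes, red, above control lanes, blue; short peaks are widened to stay visible). Shading marks stretches lost in caRNA of both lines: 5 of the 6 genes have theirs near the gene end and Cdkn2c has it near the start, and red bars appear in the shading only in mRNA lanes.

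The other 4 genes had caRNA peaks in the knockouts beside the lost stretches, apart from Asb1 in Mettl14 knockout 1. Trmt61a encodes the catalytic subunit of the enzyme that places N1-methyladenosine on transfer RNA. Its stretch at chr12:111682541-111682901 had no caRNA peak in the Mettl3 knockouts, against 6.79 and 7.23 in the Mettl3 controls, and none in the Mettl14 knockouts, against 7.33 and 6.66 in the Mettl14 controls. In mRNA of the Mettl14 line the same stretch had 3.99 and 5.03 in the knockouts and 3.02 and 4.03 in the controls, with overlap. In mRNA of the Mettl3 line it had 2.77 in knockout 1 and no peak in knockout 2, against 4.57 and 3.31 in the controls.

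The region at the start of Trmt61a, whose first bases are shown above, behaved otherwise. In caRNA of the Mettl14 line it was retained, with folds of 11.6 and 7.84 in the knockouts and 16.5 and 11.1 in the controls, and the ranges overlapped. In caRNA of the Mettl3 line knockout 1 had no peak there and knockout 2 had 2.40, against 7.02 and 4.15 in the controls. Its width over the merged peaks was 1288 bp in the Mettl14 line. A further Trmt61a region, chr12:111680679-111680871, was lost in caRNA of the Mettl14 line (none in the knockouts, 4.80 and 5.03 in the controls), while in the Mettl3 line an overlapping peak was listed in knockout 1 alone (3.68).

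Asb1 encodes an ankyrin-repeat protein with a SOCS box, which brings substrates to Cullin-RING ubiquitin ligases. Its lost stretch, chr1:91546900-91547117, lies 7001 bp from the gene start. Neither Mettl3 knockout list had a caRNA peak there, against 7.92 and 6.59 in the Mettl3 controls. Neither Mettl14 knockout list had one, against 6.26 and 6.70 in the Mettl14 controls. In mRNA this stretch had no peak in any Mettl3 library, but in the Mettl14 line it had 6.82 and 2.98 in the knockouts and 6.99 and 8.16 in the controls. The neighbouring Asb1 region at chr1:91544063-91544275 kept its caRNA peak in the Mettl3 line, with 4.31 and 4.05 in the knockouts and 5.03 and 5.97 in the controls. In the Mettl14 line knockout 1 had none there and knockout 2 had 3.26, against 5.09 and 4.17 in the controls.

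Cand2 encodes a relative of the Cullin exchange factor CAND1 that is best known from muscle. Its body overlaps Mir7660 and the end of Rpl32. It had the most regions of the 10 genes, and 2 were lost in caRNA of both lines. At chr6:115789891-115790107 the knockouts of both lines had no peak, against 4.35 and 4.90 in Mettl3 controls and 3.58 and 3.84 in Mettl14 controls. At chr6:115795645-115795838 they had none either, against 7.39 and 7.56 in Mettl3 controls and 6.66 and 5.01 in Mettl14 controls. Neither place had an mRNA peak in any list. Just before the first of them, at chr6:115789351-115789657, both Mettl3 knockouts had caRNA peaks (4.77 and 5.70). There Mettl3 control 1 had none and Mettl3 control 2 had 2.73.

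Between the 2 lost stretches lay the strongest region of Cand2, which all 16 lists marked. In caRNA its best peak had folds of 8.34 and 9.92 in the Mettl3 knockouts and 9.81 and 15.2 in the Mettl3 controls. In the Mettl14 line it had 16.2 and 10.2 in the Mettl14 knockouts and 12.1 and 19.0 in the Mettl14 controls. Knockout and control ranges overlapped in both lines. Peaks that only knockouts had also occurred in this gene. At chr6:115784316-115784508 the Mettl14 knockouts had 4.23 and 4.44 and the Mettl14 controls none, and at chr6:115786827-115787217 they had 3.32 and 6.74 and the controls none. The region next to the gene end, chr6:115803581-115804189 in the Mettl3 line, had the lowest −log10 q among the retained caRNA regions of the 10 genes, with 1.86 and 2.61 in the Mettl3 knockouts (−log10 q of 3.11 in knockout 1) and 4.39 and 5.74 in the Mettl3 controls.

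Usp19 encodes a deubiquitinase with a form anchored in the endoplasmic reticulum. Its lost stretch, chr9:108500804-108501218, had no caRNA peak in the Mettl3 knockouts, against 7.20 and 5.56 in the Mettl3 controls, and none in the Mettl14 knockouts, against 6.04 and 6.43 in the Mettl14 controls. No mRNA list had a peak there. Near the other end of the gene, at chr9:108492441-108492679 in the Mettl3 line, caRNA had folds of 6.32 and 6.46 in the Mettl3 knockouts and 4.12 and 6.20 in the Mettl3 controls. In the Mettl14 line the same place had 7.76 and 6.80 in the knockouts and 3.93 and 5.05 in the controls. The knockout values lay above the control values in both lines. This place was also where mRNA of the Mettl3 line had a peak in the knockouts only (3.99 and 3.74), which made Usp19 the 1 member called gained in mRNA of that line, where 4.68% of genes marked in both knockouts were gained. A small region beside it, chr9:108493015-108493171, had caRNA peaks in the Mettl3 knockouts (3.42 and 3.32) and none in the Mettl3 controls.

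**Figure D3:**
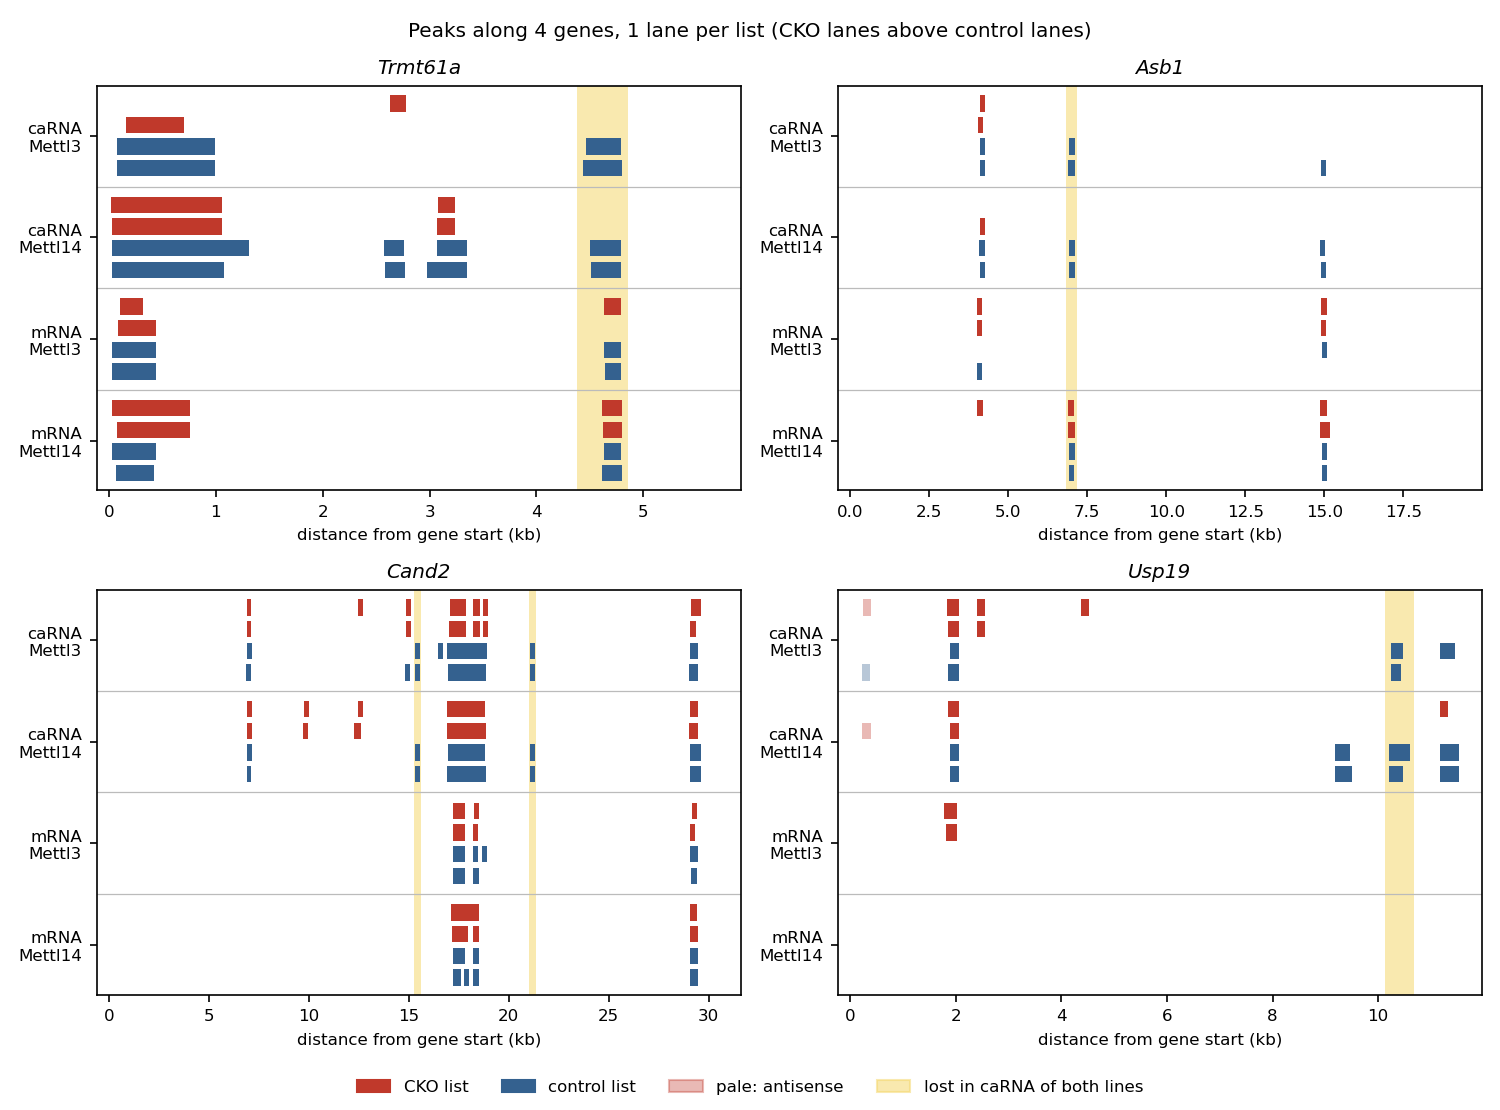
Peaks along Trmt61a, Asb1, Cand2 and Usp19, with distance from the gene start in kb on the x axis and 1 lane per list (knockout lanes, red, above control lanes, blue; pale bars are antisense peaks; short peaks are widened to stay visible). The shaded stretches hold no red bar in the caRNA lanes, while red bars stand beside them in the same lanes except that of Asb1 in Mettl14 knockout 1, among them the broad central region of Cand2 and the region near the start of Usp19.

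Counted by region, with peaks of the 4 lists of a comparison merged where they overlapped on a strand, the members had 13 regions lost, 1 gained and 5 retained in caRNA of the Mettl3 line, where 16.4% of all regions marked in both controls were lost. In caRNA of the Mettl14 line they had 16 lost, 2 gained and 6 retained, against a background of 15.7% lost. Lost regions of the 2 lines overlapped in 12 stretches, the 12 given above; over the whole genome 1.95% of Mettl3-line regions marked in all 4 controls were lost in both lines. The counts of lost regions and shared stretches too follow from the choice of genes. The remaining member regions, 9 in the Mettl3 line and 5 in the Mettl14 line, had another mix of lists. Shares over all regions gained or retained are not given, so nothing is read from the gained and retained counts.

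The place and strength of the stretches come from the chromatin RNA peaks on which the choice rested and are given as a description. All 12 stretches lay on the strand of their gene (for Cand2, the strand with the larger summed peak significance), against 83.0% of pairs of a gene and a stretch lost in caRNA of both lines and 93.8% of such pairs retained in both lines. Of the 12, 6 lay in the last 10% of the gene body: those of Itpka, Clcn1 (both), Morn4, Wasf1 and Pex5. Over all sense stretches lost in both lines this share was 53.7% (189 of 352), and over those retained in both lines 22.1%. The members are part of the 456 lost stretches, and no test was made of their place. Their median width of 352.5 bp stood beside 345 bp over all lost and 598 bp over all retained stretches. Their median control percentile of 67.5 stood beside 38 over all lost stretches and 71.2 over all retained ones.

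The mRNA lists were not used in the choice. In mRNA, no member was lost in either line. Of protein-coding genes marked in both controls, 3.67% were lost in mRNA of the Mettl3 line and 1.70% in mRNA of the Mettl14 line, and 0.177% in both. With 5 and 7 members marked in both controls of the 2 lines, 0 lost members is near these shares. The retained members were Morn4, Trmt61a, Asb1 and Cand2 in the Mettl3 line (background 91.5% of genes marked in both controls) and these 4 with Itpka, Cdkn2c and Wasf1 in the Mettl14 line (background 97.0%). No single region of Asb1 had an mRNA peak in all 4 Mettl3 libraries, since the controls were marked in different regions. All 7 members marked in both Mettl14 mRNA controls were retained there, and 0 members were gained, where 12.6% of genes marked in both knockouts were. The number of members with an mRNA peak was 7 and 6 in the Mettl3 knockouts and 6 and 5 in the Mettl3 controls, and 7 in each of the 4 Mettl14 lists. In caRNA the same counts were 4 and 4 in the Mettl3 knockouts against 10 and 10 in the controls, and 3 and 4 in the Mettl14 knockouts against 10 and 10 in the controls, which the choice fixed.

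At the 12 stretches themselves, 6 had an mRNA peak in both Mettl14 controls, those of Itpka, Morn4, Cdkn2c, Wasf1, Trmt61a and Asb1, and all 6 had one in both Mettl14 knockouts. No region of a member was lost in mRNA, where 10.2% of all regions marked in both controls were lost in the Mettl3 line and 6.33% in the Mettl14 line. Few member regions were marked in mRNA, with 5 retained in the Mettl3 line and 11 in the Mettl14 line. At such numbers 0 lost regions is near these shares. Of the 12 stretches, 3 had an mRNA peak in both Mettl3 controls (Morn4, Cdkn2c and Trmt61a). Morn4 kept it in both knockouts, and Cdkn2c and Trmt61a kept it in 1 of 2. Over all stretches lost in caRNA of both lines and marked in both mRNA controls, 96.3% (156 of 162) were retained in mRNA of the Mettl14 line and 1.23% lost. In the Mettl3 line 55.6% (65 of 117) were retained and 27.4% lost. For stretches retained in caRNA of both lines the shares in mRNA were 1.08% lost and 98.1% retained in the Mettl14 line, and 4.25% lost and 90.4% retained in the Mettl3 line. The difference between lines was not tested. With 2 libraries against 2 an exact two-sided permutation test cannot go below p = 0.333, and with labels permuted within both lines together not below p = 0.0556, so no member was tested on its own.

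**Figure D4:**
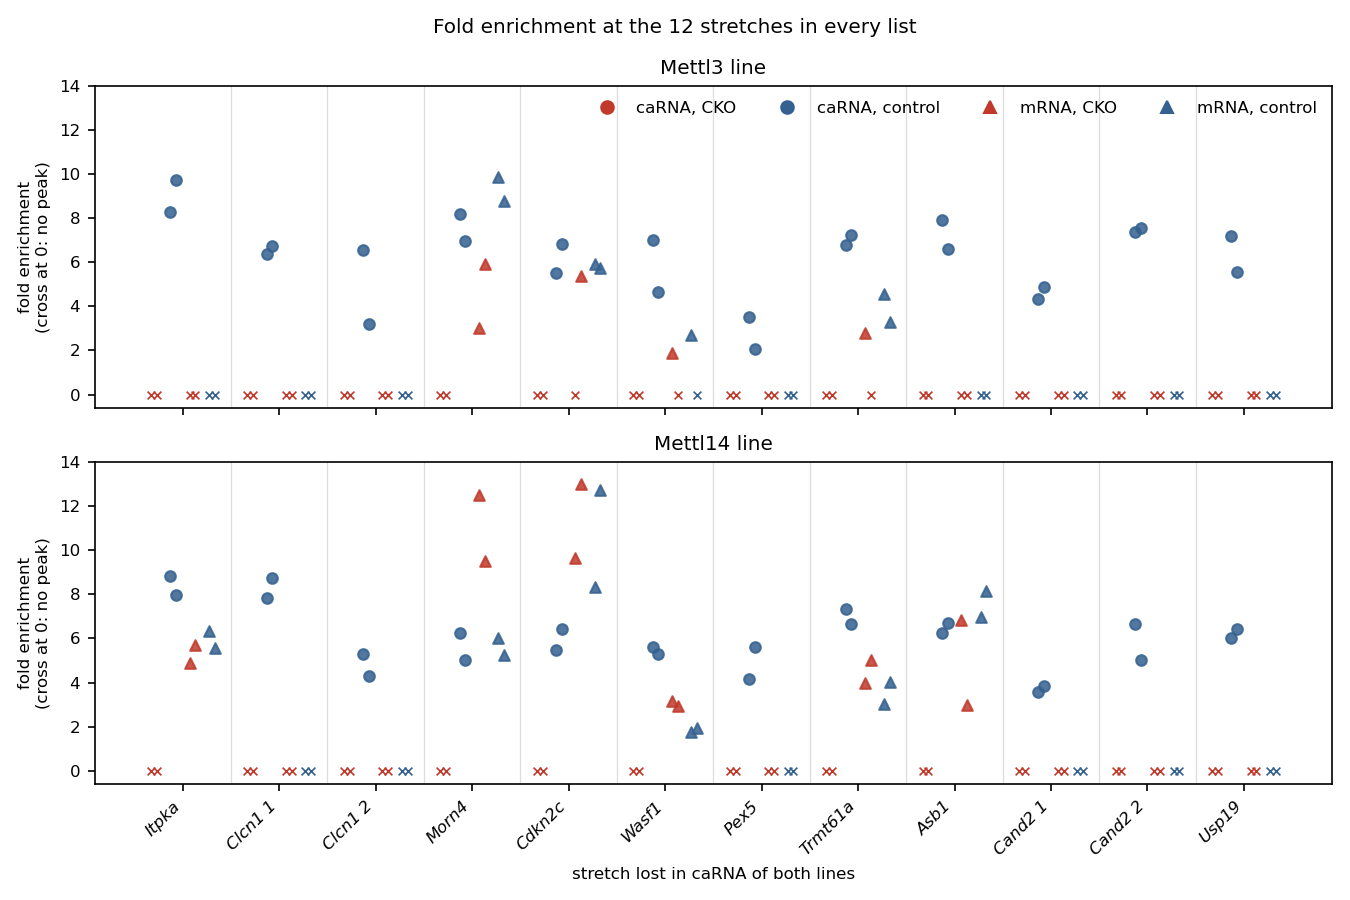
Fold enrichment at each of the 12 stretches lost in caRNA of both lines, by list, in the Mettl3 line (top) and the Mettl14 line (bottom). Circles are caRNA, triangles mRNA, red knockout and blue control, and a cross at 0 marks a list with no peak; red circles are missing throughout, while the 6 stretches with blue triangles for both controls of the Mettl14 line also have red ones.

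The relatives and partners of the members mostly kept their caRNA peaks. Among 8 inositol phosphate kinases, 7 were marked in both caRNA controls of each line, of which Itpka was lost and 6 were retained. Among 9 CLC channels and transporters the counts were the same, with Clcn1 lost and 6 retained in each line. All 9 genes of the WAVE complex list were marked in caRNA, and in each line Wasf1 was lost and 8 were retained. Of the CDK inhibitors 6 were marked in caRNA controls of each line. Cdkn2c was lost in both, and Cdkn3, a phosphatase that acts on cyclin-dependent kinases, was also lost in the Mettl14 line (none in the knockouts, 2.80 and 3.81 in the controls).

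Peroxins, the assembly and import factors of the peroxisome, included Pex2 beside Pex5 among the genes lost in caRNA of the Mettl3 line. Pex2 had no peak in either knockout, against 2.84 and 2.52 in the controls. In the Mettl14 line 2 of 11 peroxins marked in both caRNA controls were lost, Pex5 and Pex6 (none in the knockouts, 5.37 and 3.74 in the controls). Of 15 transfer RNA methyltransferase genes 0 of 14 marked were lost in caRNA of the Mettl3 line and 1 of 14, Trmt10b (none in the knockouts, 4.92 and 5.92 in the controls), in the Mettl14 line. Of 30 Cullin-RING ligase genes 0 of 17 marked were lost in caRNA of either line, and Asb14 was gained in the Mettl3 line (3.58 and 3.34 in the knockouts, none in the controls). Of 50 ubiquitin-specific proteases 0 of 44 marked were lost in the Mettl3 line, where Usp14, a protease of the proteasome, was gained (3.02 and 5.20 in the knockouts, none in the controls). In the Mettl14 line 1 of 46 was lost, Usp50 (none in the knockouts, 3.30 and 3.50 in the controls). Of 5 MORN-repeat genes 2 were marked in both caRNA controls of the Mettl3 line and 3 in those of the Mettl14 line. Morn4 was lost in both lines and 1 was retained in each. The backgrounds for lost genes are the 4.78% and 4.69% given above, and no list was tested against them. The choice of genes fixed the loss of Itpka, Clcn1, Wasf1, Cdkn2c, Pex5 and Morn4. Shares of the lists that hold them are thus not comparable with these backgrounds.

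The gene with the most similar pattern to a member was sought by Pearson's correlation of fold percentiles over the 16 libraries, with 0 for no peak. Libraries of a group share their RNA type, line and genotype label, so r is a description. The closest was Nfia, a nuclear factor I transcription factor, to Usp19 (r = 0.997). Gp5 stood with Clcn1 (0.979), Cenpl with Cdkn2c (0.967) and Tyw1 with Cand2 (0.959). 5730507C01Rik stood with Morn4 (0.913), Slc27a4 with Itpka (0.904), Sun2 with Wasf1 (0.891), Kctd2 with Asb1 (0.881) and Camk2n2 with Pex5 (0.850). None of these 9 was lost in caRNA of both lines.

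The deleted genes themselves gave no check of the genotype. Mettl14 had no caRNA peak in the Mettl14 knockouts, against 3.82 and 2.82 in the Mettl14 controls. Its mRNA had a peak of 2.30 in Mettl14 knockout 1 and none in knockout 2, against 1.69 and 3.07 in the controls. In caRNA of the Mettl3 line Mettl14 had 5.53 and 5.33 in the knockouts and no peak in the controls. Mettl3 kept caRNA peaks in the Mettl3 knockouts (4.26 and 4.64, against 4.16 and 6.82 in the controls). A peak depends on RNA and methylation and need not cover the deleted part.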

How the data were processed

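m6A immunoprecipitation was sequenced from caRNA and mRNA of mouse embryonic stem cells with an EpiMark enrichment kit and stranded SMARTer libraries, per the labels' protocols. The authors deposited 1 peak list per immunoprecipitated library, with the strand and summit offset of each peak. Each deposited list gives a fold enrichment, a ratio over the caller's background, with a −log10 p and a −log10 q for each peak. The submitters' processing notes name mm10, CASAVA, Trimmomatic 0.38, HISAT2 2.1.0 and SAMtools 1.9, without role. No source used here gives the peak caller or the scaling. The 16 input samples were not analysed here.

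Peaks were assigned by summit to gene bodies of the RefSeq table of GRCm38.p6 (the build of mm10), on either strand. Peaks on the same strand that shared at least 1 bp formed a region, computed with Python 3.11.15 and pandas 2.3.3. Gene strands came from the promoter table or, where it gave no single strand, from the strand with the larger summed peak significance. For the latter genes the sense strand thus depends on their own peaks. Percentiles are those of the fold within its own list. Backgrounds count protein-coding genes under the same rule. Region calls were checked on planted copies of isolated peaks, slightly shifted and present in every list of their group. That check does not cover crowded regions, widely spread summits or peaks near the listing level. The assignment of peaks to genes was checked against a direct search. Folds are the authors' own values and were not tested between lists. The planned motif search under summits was not run, since no genome was used here. The members and lists were chosen with earlier results of these data known. The genes named are all members, the relatives called lost or gained in caRNA (up to 5 per list), the most similar gene of each member, and Mettl3 and Mettl14; a few genes the rule names are not reported here. Alternatives were stricter and equal-length lists, other assignment rules and leaving out each library.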

Additional observations from a re-analysis of the deposited data

Results flagged for a closer look

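By fold, of the members with an mRNA peak in all 8 lists, the best fold of Morn4, Asb1 and Cand2 moved in opposite directions in the 2 lines, with every knockout value on one side of both controls. Trmt61a, the remaining member with a peak in all 8, had 2.98 and 2.79 in the Mettl3 knockouts against 6.37 and 3.31 in the controls. In the Mettl14 line its knockouts (3.99 and 5.03) and controls (3.05 and 4.03) overlapped. How common such a pattern was over all genes is not given. Morn4 had 3.02 and 5.92 in the Mettl3 knockouts against 9.86 and 8.77 in the Mettl3 controls. In the other line it had 12.5 and 9.51 in the Mettl14 knockouts against 6.02 and 5.24 in the Mettl14 controls. Asb1 had 5.69 and 5.35 in the Mettl3 knockouts against 4.17 and 5.20 in the Mettl3 controls. In the other line it had 6.82 and 5.88 in the Mettl14 knockouts against 6.99 and 8.16 in the Mettl14 controls, from best peaks that lay in different regions of the gene. Cand2 had 5.13 and 5.33 in the Mettl3 knockouts against 5.41 and 5.86 in the Mettl3 controls. In the other line it had 9.43 and 11.5 in the Mettl14 knockouts against 8.32 and 8.72 in the Mettl14 controls. The best peaks of Cand2 also lay in different regions of the gene, and in the Mettl3 line knockouts and controls overlapped within each of 2 regions, with 3.28 and 5.33 in the knockouts against 3.44 and 5.86 in the controls, and 5.13 and 3.68 against 4.04 and 3.99. Ranked as percentiles within their lists, Morn4 kept the pattern, with 18.7 and 64.6 in the Mettl3 knockouts against 90.3 and 88.0 in the controls, and 92.0 and 83.4 in the Mettl14 knockouts against 71.3 and 63.6 in the controls. Cand2 did not, with 82.5 and 90.1 in the Mettl14 knockouts against 88.6 and 91.4 in the controls. Asb1 did not either, with 61.0 and 57.1 in the Mettl3 knockouts against 37.0 and 57.3 in the controls. The median fold of the mRNA lists was 5.40 and 5.39 in the Mettl14 knockouts against 4.63 and 4.45 in the Mettl14 controls. The differences between the lines were not tested, and the folds come from separately called lists.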

How the results depend on the processing

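The 6 genes lost in caRNA of both lines were also lost with any overlap of peak and gene and with bodies widened by 1000 bp. The same held with peaks of −log10 q of at least 5 and with the strand of the gene alone. Those 2 settings only remove peaks, so they could not add a knockout peak. With any library left out the 6 stayed lost, which the rule fixes. Leaving out a library cannot undo a lost, gained or retained call, so such counts can only stay or rise. With the 10000 strongest peaks per list, 0 members were lost in caRNA of the Mettl3 line, 0 in the Mettl14 line and 0 in both: ordered by −log10 p, the best control peaks of the 6 genes stood between places 9503 and 38335 of their lists. In mRNA that setting gave 1 lost gene in the Mettl3 line (Morn4) and 0 retained, and 1 lost in the Mettl14 line (Asb1) and 4 retained. With widened bodies 0 genes were gained in mRNA of the Mettl3 line. With 1 library left out, genes lost in caRNA came to 6 in the Mettl3 line and 6 to 7 in the Mettl14 line (Asb1 too without Mettl14 knockout 2), regions lost in caRNA to 13 to 15 and 16 to 18, genes lost in mRNA to 0 to 1 and 0, genes gained to 1 to 2 and 0, genes retained to 4 to 5 and 7, and regions lost in mRNA to 1 (without any 1 of the 4 Mettl3 libraries) and 0 to 1 (1, in Wasf1, without Mettl14 control 1). Genes lost (Cdkn2c) and gained (2) in mRNA of the Mettl3 line changed without Mettl3 knockout 2. No paired analysis was possible because the results come from no test. Depth is unknown.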
